A study of Mus musculus with 36 samples.

Results

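The variable (V) segments of the T cell receptor were examined in CD8 T cells taken from the epithelium of the mouse small intestine. Members were all genes whose mouse symbol begins Trav, Trbv, Trgv, Tcrg-V or Trdv, whatever their values. They came to 176 of 78275 gene IDs, of which 128 were alpha segments, 35 beta, 7 gamma and 6 delta. Among the alpha segments 10 carry dv in the symbol, which marks segments that can join in delta chains as well as in alpha chains. The reads of 106 of the 176 reached 3 in at least 1 of 12 libraries, and the other 70 (57 alpha, 11 beta, 1 gamma and 1 delta) stayed under 3 reads in each of them.

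A T cell receptor is a pair of chains, alpha with beta or gamma with delta. Each chain gene is assembled in the developing T cell from a V segment and a joining segment, with diversity segments between them in beta and delta chains. The constant segment is joined on in the RNA transcript. The V segment read in a transcript thus tells which rearrangement the cell carries. The intestinal epithelium holds alpha-beta and gamma-delta T cells side by side, many of both kinds carry CD8 as an alpha-alpha pair, and Tcrg-V7 is known as the gamma segment of epithelial gamma-delta cells of the gut. Because a clone keeps its segments when it divides, the number of segments read and their shares describe how mixed the T cells of a library are.

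The series holds 36 samples of mice lacking the long noncoding RNA lnc13 (KO) and of lnc13 wild-type mice (WT), and it asks what lnc13 does in the intestine. CD8 T cells from intraepithelial lymphocytes (IEL) were sequenced in 4 groups of 3 libraries: unstimulated WT, unstimulated KO, and WT and KO cells kept in the cytokine IL-15 for 48 hours, which the series describes as CD8a+ cells. The labels number the libraries of a group as biological replicates and do not say how many mice each holds, so p-values measure the spread between these libraries. Strain, age, cell number and any culture of the unstimulated cells are not given in the sources used here. DQ8, a human class II gene carried by the gluten-challenged mice of the series, is not named for these 4 groups, and lnc13 itself was not analysed here as a check of the genotype labels.

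Libraries held 16428511 to 23762128 reads in genes in the unstimulated set and 14724754 to 26997371 in the IL-15 set. V segments took 19754 to 30042 and 29184 to 46194 of these. Values below are the authors' normalised reads (read counts brought to a common depth by 1 factor a library), and a share is the percentage of a chain's V reads. The 2 sets were normalised apart, so they are set side by side without a test. Cd8a, the CD8 alpha chain gene, stood at 20432 to 25190 in the unstimulated set and at 35297 to 57820 in the IL-15 set. Of 3 CD4 cell marker genes, Cd4 was at most 49.95. Foxp3 was at most 6.09 without stimulation and 43.0 to 529 in IL-15 libraries. Cd40lg reached 211 in unstimulated WT replicate 3 and 185 in IL-15 WT replicate 3. High Cd8a and low Cd4 match the labelled cell type, and the source of the Foxp3 and Cd40lg reads was not tested. Correlation of log2 values between libraries, over all genes tested, was only 0.524 to 0.623 in the unstimulated set. In the IL-15 set it was 0.948 to 0.976, except for WT replicate 3, which stood apart at 0.870 to 0.887. In that library Cd8b1, the CD8 beta chain gene, was 43429 against 1681 to 6394 in the other 5, and Trdc, the delta constant segment, was 1897 against 26591 to 43735. The unstimulated libraries had Cd8b1 at 19677 to 33312 and Trdc at 2.03 to 992. The sum of 4 NK and innate lymphoid marker genes was 2195 in IL-15 WT replicate 3, 27046 to 45934 in the other 5, and 544 to 5585 without stimulation. In those other 5 Fcer1g stood at 17345 to 35661 and Tyrobp at 8708 to 10725. Ncr1 was at most 14.95 there and Klrb1c 54.5 to 150. Klrb1c was 3523 in unstimulated KO replicate 3 and at most 5.09 in the rest of that set. Whether the sum reflects NK or innate lymphoid cells was not tested. Whether the sort or label of IL-15 WT replicate 3 differs from the others was not tested. IL-15 WT values that rest on that library are to be read with that doubt, and the main IL-15 comparisons are given with and without it. The sum of 6 epithelial marker genes ranged from 3101 to 19218 over unstimulated libraries and from 3044 to 4693 over IL-15 libraries, and the sum of 6 B and plasma cell genes from 25.0 to 4481 and from 1242 to 2310. Of these 6, Cd79b stood at 2.34 to 4473 and at 1224 to 2307, and Igkc at 0 in all 12. Among the epithelial genes, Epcam (668 to 3071) and Cdh1 (1230 to 2161) were the highest in IL-15 libraries. Vil1, Krt8, Krt20 and Fabp1 were at most 246 there. The part of these cells in the results was not tested.

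Gamma and delta segments together made up the smaller part of V reads in each unstimulated library and the larger part in 5 of 6 IL-15 libraries. Their share was 16.1, 16.6 and 18.6% in unstimulated WT libraries 1 to 3 and 27.3, 15.5 and 17.2% in the KO libraries. With IL-15 it was 65.1, 70.0 and 30.0% in WT and 70.4, 69.3 and 66.4% in KO. WT replicate 3 lay between the other IL-15 libraries and the unstimulated ones. WT and KO overlapped in the unstimulated set, at 17.1 ± 1.32% and 19.99 ± 6.36% (SD, n = 3 each). The IL-15 means were 55.0 ± 21.8% in WT and 68.7 ± 2.06% in KO (n = 3 each), and WT without replicate 3 stood at 67.6 ± 3.50% (n = 2). In bulk RNA, fewer cells of a type and less RNA per cell cannot be told apart. Delta segments alone held 0 to 0.240% of V reads in unstimulated libraries and 0.169 to 8.66% in IL-15 libraries. Unstimulated KO replicate 1, the highest of its set at 27.3%, had 0 delta V reads and Trdc at 2.03. The unstimulated share therefore rests on gamma reads and is not a measure of gamma-delta cells. In IL-15 libraries gamma segments alone held 29.8 to 65.1% of V reads, and alpha segments with dv in the symbol were counted as alpha. The IL-15 share is thus likewise a share of reads and not of cells.

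**Figure D1:**
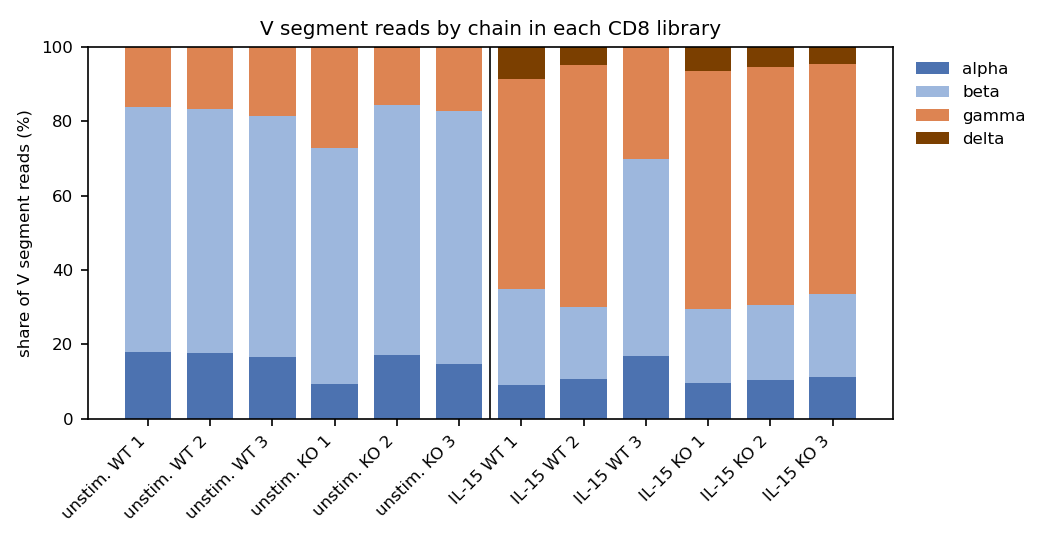
Share of all V segment reads (percent, stacked bars from 0 to 100) that fell on alpha, beta, gamma and delta segments in each of the 12 CD8 libraries. Gamma and delta bars fill 15.5 to 27.3% of unstimulated libraries, 65.1 to 70.4% of 5 IL-15 libraries and 30.0% of IL-15 WT replicate 3.

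Among gamma segments Trgv2 took the largest share in all 12 libraries. It was 88.6, 84.0 and 57.4% of gamma V reads in unstimulated WT libraries and 82.2, 64.4 and 83.4% in KO. With IL-15 it was 55.6, 52.1 and 76.8% in WT and 58.9, 55.4 and 59.0% in KO. Divided by gene span the order of the 7 gamma segments did not change in either set. Trgv2 is the V segment that joins to the constant segment Tcrg-C2. Its own values were 2199 to 4954 in unstimulated and 7027 to 12533 in IL-15 libraries, and those of Tcrg-C2 were 6187 to 13659 and 21284 to 33699.

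Tcrg-V7, the segment typical of gut epithelial gamma-delta cells, was patchy without stimulation and abundant in IL-15. Its values were 0.870, 0.781 and 920 in unstimulated WT libraries 1 to 3 and 514, 560 and 359 in KO. These are 1 read each in WT replicates 1 and 2 against 919 reads in WT replicate 3. In the same WT replicates 1 and 2, Tcrg-C1, the constant segment of the cluster that holds Tcrg-V7, stood at 7.83 and 8.60, against 2741 in WT replicate 3 and 228 to 2978 in KO. The IL-15 libraries gave 7212, 8485 and 577 in WT and 6249, 7445 and 4682 in KO, with Tcrg-C1 at 3110 in WT replicate 3 and 17103 to 28738 in the other 5. V and constant segment were thus low in the same 2 unstimulated libraries and lowest in the same IL-15 library. As a share of gamma V reads Tcrg-V7 was 32.9, 35.3 and 6.31% in IL-15 WT and 30.0, 34.1 and 27.8% in IL-15 KO.

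Tcrg-V1, which joins to Tcrg-C4, was read in all 12 libraries. Its share was 11.4, 15.9 and 20.96% in unstimulated WT and 9.19, 10.03 and 8.55% in unstimulated KO, where each KO library lay below each WT library. Its values did not separate in the same way, at 460, 416 and 892 in WT and 554, 427 and 387 in KO. In IL-15 libraries its share was 9.77, 11.1 and 16.6% in WT and 9.77, 8.28 and 11.4% in KO, and the groups overlapped. With 3 libraries against 3, an exact permutation test of 1 value cannot give a two-sided p below 0.1, so single shares are described and not called.

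The rarer gamma segments were also scarce in IL-15 WT replicate 3. Tcrg-V3 had 0 to 3 reads in 5 unstimulated libraries and 566 in KO replicate 2, where Tcrg-C3, the constant segment of its own cluster, was 1031 against 1.56 to 206 in the others. Tcrg-V3 in the IL-15 set was 209, 205 and 19.2 in WT and 226, 384 and 254 in KO, and Tcrg-C3 was again lowest in WT replicate 3, at 73.0. Tcrg-V6 and Tcrg-V5, known from gamma-delta cells of other barrier tissues, had at most 4 reads in each unstimulated library. In IL-15 libraries they reached 36 to 144 and 10 to 31 reads, apart from WT replicate 3 with 0 reads of both. Tcrg-V4 had 0 reads in all 12 libraries.

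**Figure D2:**
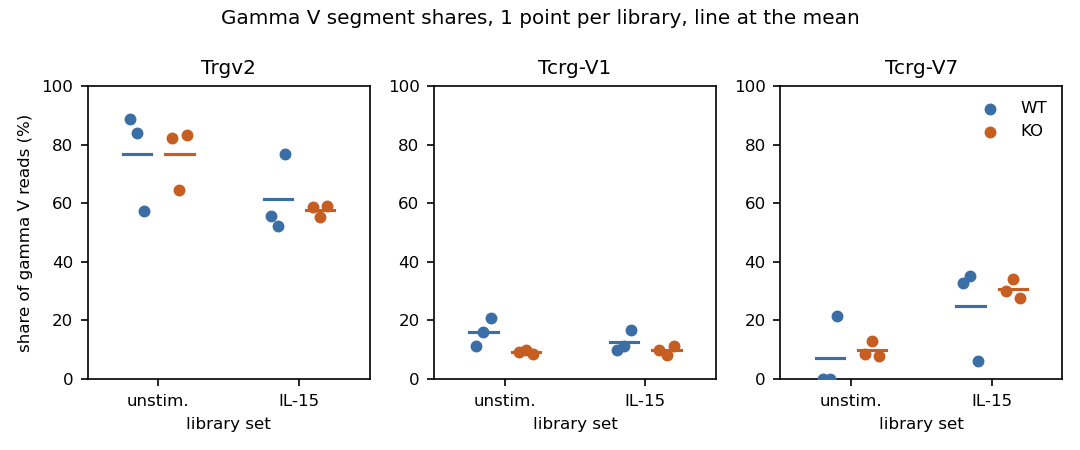
Share of gamma V reads (percent) taken by Trgv2, Tcrg-V1 and Tcrg-V7, with 1 point for each library, WT in blue and KO in orange, and a line at each group's mean (n = 3). In the IL-15 WT group WT replicate 3 is the point at 76.8% for Trgv2 and at 6.31% for Tcrg-V7.

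Delta segments were close to absent from unstimulated libraries. Trdv5 gave 2 reads in WT replicate 1 and 72 in KO replicate 2, and no other Trdv segment had a read there. IL-15 libraries held 2962, 1636 and 78 delta V reads in WT and 2088, 1564 and 1356 in KO. Trdv5 took 32.7, 46.1 and 34.6% of them in WT and 54.5, 47.5 and 38.9% in KO. Trdv4 took 42.7, 28.3 and 17.9% in WT and 17.5, 26.8 and 19.1% in KO, and Trdv1 took 24.5, 25.4 and 34.6% in WT and 27.7, 25.6 and 41.8% in KO. WT and KO overlapped for each of the 3. Shares of WT replicate 3 rest on 78 reads, so that its 27 Trdv5 reads have a 95% Wilson interval of 25.0 to 45.7%. Trdv3, annotated as a pseudogene, reached 10 reads in that library and at most 3 in any other, Trdv2-1 at most 3, and Trdv2-2 had 0 reads in all 12.

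Alpha segments with dv in the symbol were abundant in the 5 libraries rich in delta reads. They made up 6.34, 14.0 and 17.3% of alpha V reads in unstimulated WT and 0.298, 9.56 and 10.2% in KO. With IL-15 they made up 55.0, 55.4 and 6.35% in WT and 53.6, 65.4 and 53.2% in KO. Trav15-2-dv6-2, Trav15-1-dv6-1 and Trav13-4-dv7 led the alpha segments of the 5 IL-15 libraries other than WT replicate 3. Trav15-2-dv6-2 was 966, 1023 and 71.6 in WT and 578, 806 and 552 in KO, and Trav15-1-dv6-1 was 355, 651 and 29.8 in WT and 562, 810 and 627 in KO. Trav13-4-dv7 was 341, 355 and 23.2 in WT and 250, 474 and 273 in KO. Low values in WT replicate 3 coincide with its low Trdc. Without stimulation Trav15-2-dv6-2 was read in WT replicate 2 alone, at 388 normalised reads, a library with 0 Trdv reads and Trdc at 992.

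Alpha segments were few and differed from library to library without stimulation. The libraries of that set also agreed poorly over all genes tested (correlation 0.524 to 0.623), so such patchiness is not particular to V segments. At least 3 reads were found for 19, 10 and 12 of 128 alpha segments in unstimulated WT libraries and for 6, 12 and 14 in KO. IL-15 libraries held 57, 58 and 52 in WT and 57, 55 and 60 in KO, at alpha read totals of 3076 to 7793 against 2012 to 5159. What depth, cell number and the low agreement over all genes add to this was not tested. Of 37 alpha segments seen in the unstimulated set, 18 were seen in 1 library each, and Trav16n was the 1 segment seen in all 6. Any 2 unstimulated libraries shared 2 to 8 alpha segments, and any 2 IL-15 libraries shared 41 to 53. Segments seen in no other unstimulated library held 22.3, 31.9 and 9.04% of alpha reads in WT and 0, 26.1 and 8.66% in KO, against at most 0.577% in an IL-15 library. Of the IL-15 set, 34 alpha segments were seen in all 6 libraries.

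The effective number of segments, the number of equally used segments that would give the same Shannon diversity, was 13.5, 7.46 and 9.70 for alpha in unstimulated WT and 3.87, 8.84 and 13.2 in KO. The lowest belonged to KO replicate 1, in which 5 segments held 99.7% of 2012 alpha reads. In IL-15 libraries it was 20.8, 16.7 and 13.6 in WT and 21.5, 14.99 and 20.6 in KO, with WT replicate 3 the lowest. With dv segments left out, a choice made after seeing the data, the 5 other IL-15 libraries stood at 24.4 to 31.9 and WT replicate 3 at 11.2. With segments of a family summed, the IL-15 means of all alpha segments were 8.38 in WT and 8.12 in KO, beside 7.18 and 6.49 without stimulation. Within each set WT and KO overlapped over single segments.

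**Figure D3:**
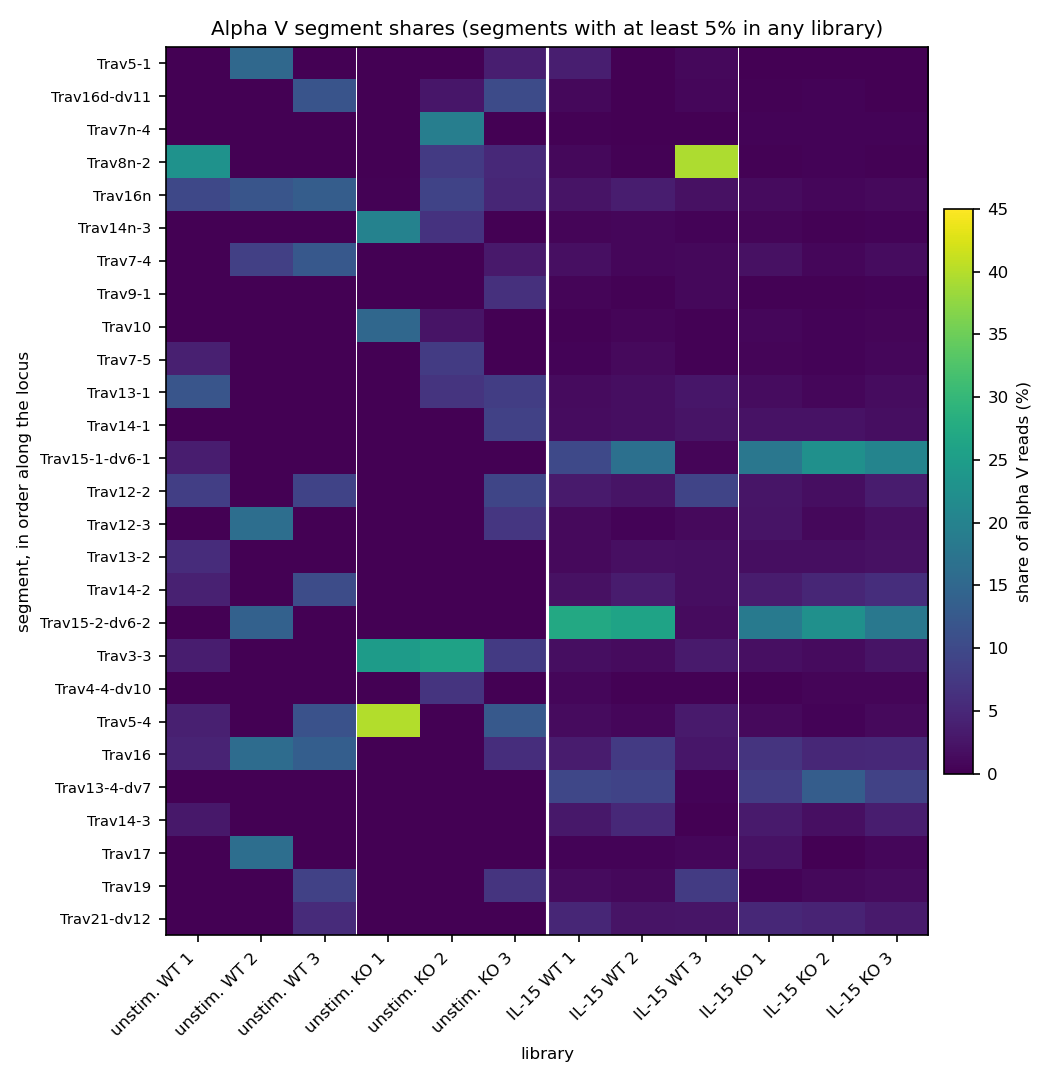
Share of alpha V reads (percent, colour from 0 to 45) for the 27 alpha segments that reached 5% in any library, in order along the locus, in the 12 libraries. Unstimulated libraries show a few bright cells in different rows, 5 IL-15 libraries share bright rows at Trav15-1-dv6-1, Trav15-2-dv6-2 and Trav13-4-dv7, and IL-15 WT replicate 3 is bright at Trav8n-2.

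The leading alpha segment differed between most unstimulated libraries. Trav5-4 held 39.8% of alpha V reads in KO replicate 1 (95% Wilson interval 37.6 to 41.9%), with 800 reads, and had 0 reads in WT replicate 2 and KO replicate 2. A count of 0 there allows a share of up to 0.0843% and 0.0584%. Trav3-3 led in KO replicate 2, with 25.9%, and had 24.7% in KO replicate 1, 7.70% in KO replicate 3, 3.59% in WT replicate 1 and 0 reads in WT replicates 2 and 3. Trav17 led in WT replicate 2, at 16.3% or 581 reads, and had 0 reads in the other 5 libraries. Trav7n-4 likewise had 984 reads in KO replicate 2 and 0 in the rest. Each of these 4 segments was well read in at least 1 library and unread in at least 1 other. Intervals and limits cover counting error only, since reads amplified by PCR without molecular identifiers are not independent molecules. They also leave out reads that could be split between similar segments of a family. Trav7-4, of the same family as Trav7n-4, had no reads in KO replicate 2 and was read in WT replicates 2 and 3 and KO replicate 3. A count of 0 for a single segment is thus uncertain.

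Trav16n, the alpha segment read in all 6, was 437, 331 and 501 in unstimulated WT and 4.07, 432 and 192 in KO. Trav16 was 200, 441 and 509 in WT and 0, 0 and 232 in KO. Both belong to a family of near-identical copies (d and n in an alpha symbol mark copies from a repeated stretch of the locus), and reads could be split between such copies, so their single values are uncertain. Summed as a family, Trav16 segments held 26.8 ± 12.1% of alpha reads in unstimulated WT and 11.03 ± 10.5% in KO, and 7.81 ± 3.03% and 7.03 ± 1.13% in IL-15 WT and KO (n = 3 each). Trav8n-2 held 23.0% in unstimulated WT replicate 1, 7.60 and 5.21% in KO replicates 2 and 3, 0% in the other 3 unstimulated libraries, 0.273 to 0.987% in 5 IL-15 libraries and 39.4% in IL-15 WT replicate 3 (3074 reads, 95% Wilson interval 38.4 to 40.5%).

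Position along the locus, which the choice of members did not use, was described as well. The 43 alpha segments nearest the joining segments held 49.6 to 79.8% of alpha reads in unstimulated libraries, 83.0 to 92.6% in 5 IL-15 libraries and 46.9% in IL-15 WT replicate 3. With dv segments left out the ranges were 47.4 to 84.3%, 65.2 to 84.2% and 44.3%. The first pair of ranges separates and the second overlaps. The 34 n copies, which include Trav8n-2 and Trav16n, held 10.1 to 42.5% of alpha reads without stimulation, 3.19 to 6.37% in 5 IL-15 libraries and 42.7% in IL-15 WT replicate 3, and the 39 d copies at most 11.8% in any library. Reads could be split between near-identical copies, so position and copy status were not told apart here. Trav11, used by invariant NKT cells, had 0 reads in all 12 libraries. Its copy Trav11d had 1 read, in IL-15 WT replicate 3, and the copy Trav11n had 45 there, 2 and 1 in IL-15 KO replicates 1 and 3, and 0 in the rest. Trav1, used by MAIT cells, had 80 and 250 reads in unstimulated WT replicate 1 and KO replicate 2, 331 in IL-15 WT replicate 3 and at most 16 in any other library. In those 3 libraries it held 1.55, 4.87 and 4.25% of alpha reads.

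Beta segments were shared more widely. At least 3 reads were found for 16, 13 and 15 of 35 beta segments in unstimulated WT and 15, 16 and 14 in KO, and for 21 in each IL-15 library. In the unstimulated set 9 were seen in all 6 libraries, and in the IL-15 set 20. The effective number was 9.996, 7.40 and 9.49 in unstimulated WT and 11.04, 11.02 and 8.86 in KO. With IL-15 it was 13.0, 12.2 and 7.83 in WT and 13.5, 14.1 and 14.6 in KO, so that each KO library lay above each WT library. The means were 11.01 ± 2.78 and 14.1 ± 0.597 (n = 3 each), and WT without replicate 3 was 12.6 ± 0.522 (n = 2). No test was made of this summary.

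Without stimulation the leading beta segments were Trbv12-2, Trbv15, Trbv13-3 and Trbv19, each with a wide spread. Trbv12-2 had shares of 19.8, 39.1 and 13.6% in WT and 10.4, 12.6 and 30.9% in KO. Trbv15 had 2.12, 13.9 and 12.7% in WT and 15.97, 16.1 and 10.7% in KO, and it was the largest segment of KO replicates 1 and 2. Both segments overlapped between WT and KO. Trbv13-3 was 30.9% in WT replicate 3 and 3.85 to 13.7% in the others. Trbv19 was 24.4, 1.33 and 7.69% in WT and 9.94, 3.25 and 0% in KO, where KO replicate 3 had 0 of 13415 beta reads. The 5th, Trbv3, was steadier, at 3.16 to 10.8% without stimulation and 6.81 to 10.3% with IL-15. In 5 IL-15 libraries Trbv16 led, at 13.2 to 20.3%, with Trbv13-1 at 10.5 to 14.995%, and in the unstimulated set these segments held 2.32 to 10.1% and 0.0508 to 12.2%. In IL-15 WT replicate 3 Trbv19 led with 43.9% (10770 reads, 95% Wilson interval 43.3 to 44.5%), against 4.39 to 6.61% in the other 5. The 2 libraries with a high Trbv19 share, unstimulated WT replicate 1 and IL-15 WT replicate 3, were also the 2 with the highest Trav8n-2 share. Divided by gene span, Trbv12-2, Trbv15, Trbv13-3, Trbv19 and Trbv3 were the 5 largest unstimulated segments as before, and Trbv3 passed Trbv12-2 for the fifth rank in the IL-15 set. Trbv29, annotated as a pseudogene in the RefSeq table, was read in all 12 libraries, with shares of 0.906 to 6.52%.

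**Figure D4:**
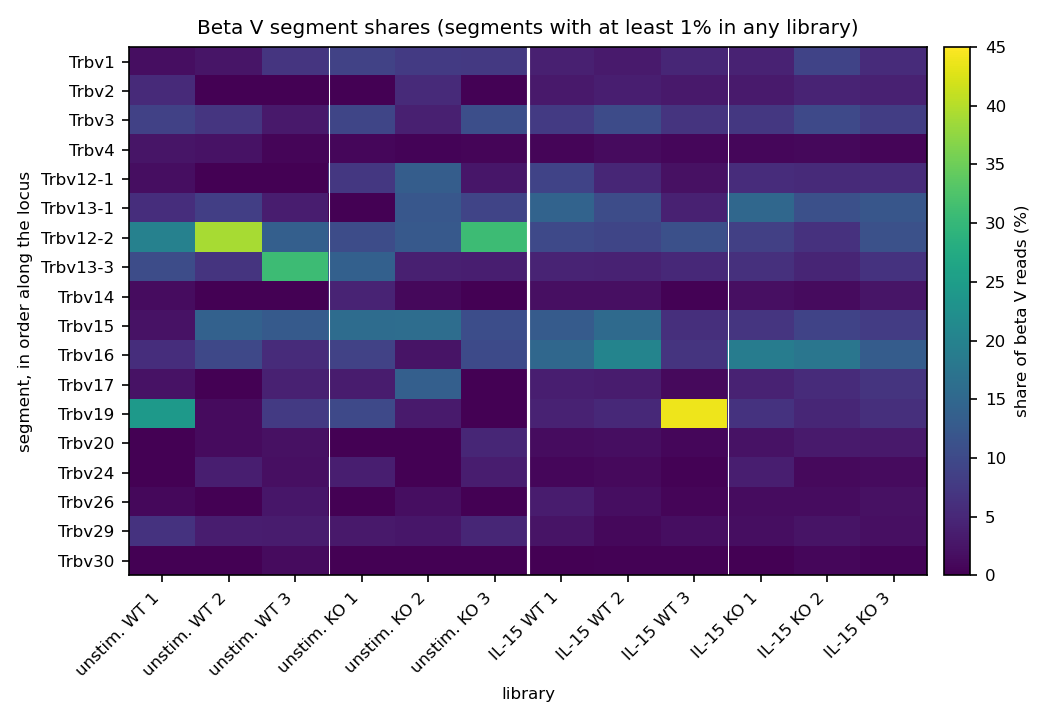
Share of beta V reads (percent, colour from 0 to 45) for the 18 beta segments that reached 1% in any library, in order along the locus, in the 12 libraries. The 5 other IL-15 libraries each peak at Trbv16, the unstimulated libraries peak at Trbv12-2 (WT 2, KO 3), Trbv15 (KO 1, KO 2), Trbv13-3 (WT 3) or Trbv19 (WT 1), and IL-15 WT replicate 3 peaks at Trbv19 with 43.9%.

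The distance in usage between 2 libraries, meaning the percentage of reads that would have to be moved to other segments to make their shares equal, put these patterns in 1 number. For alpha it was 48.6 to 99.6% between unstimulated libraries (median 75.2%), 13.4 to 25.6% between the 5 IL-15 libraries other than WT replicate 3, and 63.8 to 72.8% between WT replicate 3 and those 5. For beta the same ranges were 17.5 to 49.9% (median 43.4%), 12.3 to 17.5% and 38.1 to 44.3%. Alpha usage of unstimulated libraries differed by a median of 70.8% within a genotype (range 66.1 to 85.7%, 6 pairs) and between genotypes by 88.02% (48.6 to 99.6%, 9 pairs), and these ranges overlap. For beta the medians were 43.5 and 42.5%. IL-15 libraries had alpha medians of 20.9 and 25.1%, with WT replicate 3 in both. Pairs share libraries, so no test was made.

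No V segment passed the test between KO and WT in either set. In the unstimulated set 58 of 176 segments had a mean value of at least 5 and entered limma's test on log2(value + 1) with Benjamini-Hochberg adjustment over 17208 genes, and 0 of 58 were called, beside 0 of all genes (0%). The median log2 difference, KO minus WT, was -0.20 over the 58 segments and -0.08 over all genes tested, with 26 segments above 0 and 32 below. At an unadjusted p under 0.05 there were 4 of 58 segments, beside 3.34% of all genes. In the IL-15 set 83 segments entered and 0 were called, beside 0 of 16371 genes (0%). Their median was -0.09 against 0.08 over all genes, 39 were above 0 and 44 below, and 8 of 83 had an unadjusted p under 0.05, beside 11.2% of all genes. Without WT replicate 3 limma called 0 of the 83 segments and 1 gene.

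Groups that do not overlap, with each KO library above or below each WT library, were also few. In the unstimulated set 4 of 58 segments did so in normalised reads, all with KO higher, beside 8.52% of all genes in either direction and 3.81% with KO higher and 4.71% with KO lower. They were Trav3-3, Trbv12-1, Trbv1 and Trbv15. In the IL-15 set 11 of 83 segments did so, 5 with KO higher and 6 lower, beside 20.3% of all genes, 11.1% higher and 9.16% lower. The share of members in either direction was 6.90% unstimulated, below 8.52% but above the 3.81% of all genes with KO higher, and 13.3% in the IL-15 set, below 20.3%. Without IL-15 WT replicate 3, an alternative chosen after seeing the data, 17 of 83 segments (20.5%) did not overlap, 6 with KO higher and 11 lower, beside 38.8% of all genes, 20.5% higher and 18.3% lower.

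The unstimulated segments with the smallest p show how far libraries of 1 group lay apart. Trav3-3 was 161, 0 and 0 in WT and 506, 1235 and 301 in KO (log2 difference 6.72, SE 2.36, limma adjusted p = 0.903). Trbv12-1 was 288, 1.56 and 0 in WT and 1012, 2499 and 474 in KO (6.88, SE 2.55, limma adjusted p = 0.903). Each KO library lay above each WT library for both, while the WT libraries ran from 331 reads to 0 for Trbv12-1. Trav14-2 was 186, 0 and 397 in WT and 0 in all 3 KO libraries, and Trav14n-3 was 0, 0.781 and 0 in WT and 408, 317 and 0 in KO. Both groups overlap at 0 in these 2 segments, and limma gave an adjusted p of 0.903 for each and for Trav16 (log2 difference -5.86, SE 2.40).

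In the IL-15 set Trbv15 had the smallest p of all segments. Its values were 1284, 1106 and 990 in WT and 457, 619 and 490 in KO, and each KO library lay below each WT library (log2 difference -1.11, SE 0.18, limma adjusted p = 0.349). Without WT replicate 3 the difference was -1.20 (limma adjusted p = 0.0781), and over the alternatives other than DESeq2 the adjusted p ran from 0.0781 to 0.858. As a share of beta reads Trbv15 was 12.9, 15.5 and 6.08% in WT and 7.01, 8.98 and 8.04% in KO, and the groups overlapped through WT replicate 3. Trav16n was 81.7, 138 and 102 in WT and 41.1, 31.4 and 37.4 in KO (-1.50, SE 0.35, limma adjusted p = 0.385), and it lay below WT in share as well, at 2.29, 3.53 and 1.98% against 1.30, 0.878 and 1.22%. Without WT replicate 3 its difference was -1.52 (limma adjusted p = 0.122). Trav3-1 was 56.8, 29.0 and 81.6 in WT and 21.1, 4.65 and 12.2 in KO (-2.15, SE 0.67, limma adjusted p = 0.413), and without WT replicate 3 the difference was -1.82 (limma adjusted p = 0.207). Trbv21 and Trav7n-4 had at most 6 reads in each WT library and 7 to 19 in each KO library.

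Another count model gave a different number of calls. DESeq2 on the recovered reads called 3 segments in the unstimulated set, Trav14n-3 and Trav10 higher in KO (adjusted p = 0.00701 and 0.0413) and Trav14-2 lower (0.00824), of the 31 segments to which it gave an adjusted p, beside 6.52% of all genes. All 3 have libraries at 0 in both genotypes. Trav14n-3 and Trav14-2 are segments of the same family, whose reads could be split between copies. It called 3 in the IL-15 set, all lower in KO, of 75 with an adjusted p and beside 0.905% of all genes: Trbv15 (0.000236), Trav5-1 (0.0313) and Trav16n (0.0342). Trav5-1 was 137, 4.47 and 53.1 in WT and 2.01, 0 and 4.67 in KO, so it overlapped. The edgeR quasi-likelihood test on the same reads called 0 in both sets, with 8 of 58 and 11 of 83 segments at an unadjusted p under 0.05, beside 8.02% and 10.1% of all genes.

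**Figure D5:**
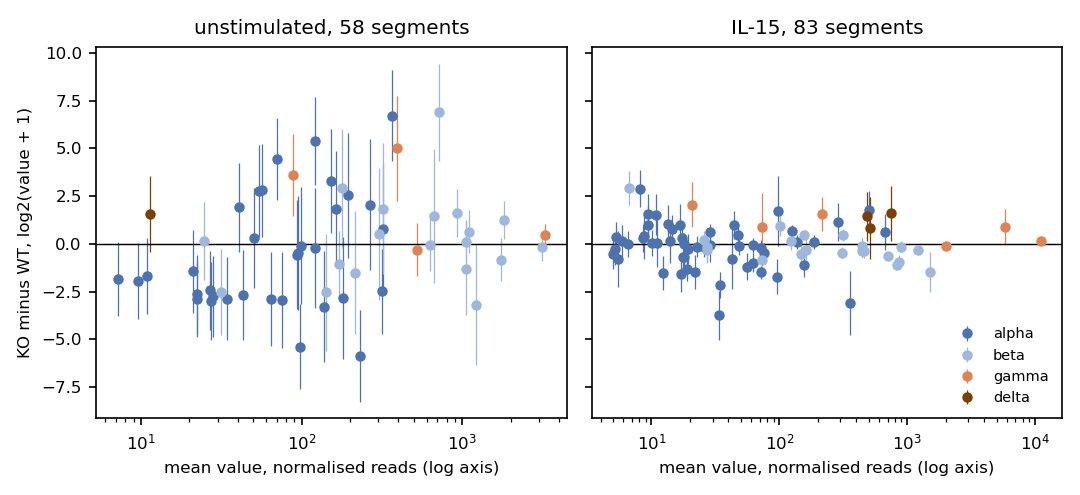
Difference between KO and WT on the log2(value + 1) scale, with its SE as bars, against the mean value in normalised reads (log axis) for the 58 unstimulated and 83 IL-15 segments tested. Unstimulated differences reach 6.88 with SE bars of several units, IL-15 differences lie closer to 0, and none passed the limma test in either set.

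The other genes of the receptor gave no call either. Of 100 listed joining, diversity and constant segments, CD3 chains and rearrangement genes, 61 entered the unstimulated test and 59 the IL-15 test, and 0 were called in each. Their median log2 differences were -0.40 and 0.05. The joining segment Traj28, which had the smallest p of the list, was 0, 0 and 1.00 in unstimulated WT and 279, 203 and 14.6 in KO (log2 difference 6.25, SE 1.34, limma adjusted p = 0.700), the same patchy form as the V segments. The alpha constant segment Trac, which every alpha transcript carries, was 10464, 8859 and 18090 in IL-15 WT and 6802, 7552 and 7425 in KO (-0.71, SE 0.25, limma adjusted p = 0.417). Each KO library lay below each WT library, beside 9.16% of all genes with KO lower and 20.3% in either direction. Without WT replicate 3 the Trac difference was -0.41 (SE 0.11, limma adjusted p = 0.145).

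Unsorted IEL preparations of gluten-challenged DQ8 mice gave a second view of the same tissue with other methods. They list 150 of the 176 segments and held 371 and 1064 V reads in WT and 380 and 870 in KO. Gamma and delta segments made up 70.9 and 54.8% in WT and 74.7 and 58.5% in KO. Trgv2 had 33.6 and 44.1% of gamma reads in WT and 30.0 and 37.6% in KO, and Tcrg-V7 had 39.7 and 23.6% in WT and 43.1 and 33.7% in KO, so each led in 2 of the 4 libraries. Trbv16 had 11.1 and 11.8% of beta reads in WT, where Trbv5 (12.5%) in replicate 1 and Trbv13-3 (17.1%) in replicate 2 stood higher, and 17.6 and 15.7% in KO. Trav15-2-dv6-2 ranged from 2.78 to 15.4% of 28 to 201 alpha reads, and Trdv5 from 38.7 to 57.8% of 31 to 46 delta reads. Kit, counting and annotation differ between these libraries and the CD8 libraries, so the values are given with no test. LPL preparations held 9 to 201 V reads and whole tissue 55 to 72, too few for shares of single segments.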

How the data were processed

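Per the labels, the CD8 IEL libraries came from a NEBNext kit for low RNA amounts. The submitters' processing notes name STAR, featureCounts, DESeq2, TopHat, DESeq, BWA and deepTools, with builds mm10 and mm39, without roles, so no coordinates are given. In both CD8 tables the deposited value is a normalised signal, made by the authors from read counts. All values of a column became whole within 0.01 when divided by 1 factor, and these recovered reads gave depths, shares and Wilson intervals (95%). The deposited IEL, LPL and tissue files hold raw read counts per gene, and their headers name HISAT2. The 6 CD8ab and 6 RNA antisense purification samples were not analysed here.

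Symbols were found for 51486 of 78275 Ensembl IDs, which hold 98.6 and 99.4% of reads, and all 176 members were matched to a RefSeq table (GRCm38.p6) for biotype, span and order. Genes with a mean of at least 5 were tested by limma-trend on log2(value + 1), each set alone, with adjusted p under 0.05 as the threshold. Fold changes on that scale understate low genes. The test was checked on simulated data. Alternatives were pseudocounts of 0.5 and 5, other filters, edgeR, DESeq2, a replicate block, families, a minimum of 10 reads and leaving out each library. Named were the 5 largest alpha and beta segments of each set, each library's largest, all gamma and delta segments, the 5 smallest p in each set, and Trav1, Trav11, Trav11d and Tcrg-V7. Others, such as Trav11n, Trbv5, Trbv1, Trbv29, Trav10 and Trav5-1, were named after their values were seen. Members and lists were chosen with earlier results of these data known. Tools were R 4.3.3, limma 3.58.1, edgeR 4.0.16, DESeq2 1.42.0, Python 3.11.15 and pandas 2.3.3.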

Additional observations from a re-analysis of the deposited data

Results flagged for a closer look

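Trbv15 lay on opposite sides in the 2 CD8 sets. Its normalised reads were higher in each KO library than in each WT library without stimulation (KO minus WT mean 1169) and lower in IL-15 (-604.8). Neither difference was called (limma adjusted p = 0.903 without stimulation and 0.349 in IL-15). Without stimulation the SE of the log2 difference was nearly as large as the difference itself, so a change of direction between the sets was not shown. The difference between the sets was not tested, since the tables were normalised apart, and in share of beta reads WT and KO overlapped in both sets.

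Tcrg-V4, Trbv13-2 and Trdv2-2 were read in each of the 4 IEL preparations and had 0 reads in all 12 CD8 libraries. Over those 4 libraries Tcrg-V4, a gamma segment, had 160 reads (18 and 69 in WT, 27 and 46 in KO), Trbv13-2, a beta segment, 67 (7 and 28 in WT, 6 and 26 in KO), and Trdv2-2, a delta segment, 37 (9 and 9 in WT, 11 and 8 in KO). In the IEL libraries they made up 10.8% of gamma, 10.3% of beta and 24.2% of delta V reads. The CD8 tables list all 3 at 0, and the part of the different annotation and counting in this was not tested.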

How the results depend on the processing

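In the KO and WT comparison limma called 0 segments under each alternative of pseudocount, filter, left-out library (range 0 to 0) and replicate block, in both sets, and so did the edgeR fit to each set. DESeq2 called 3 segments in each set, and the cause was not tested. The replicate block left 0 calls. Over all genes tested, libraries with the same number did not deviate together (Pearson r of -0.057, -0.020 and -0.001 unstimulated, 0.001, -0.046 and -0.049 in IL-15). No pairing by number was seen, but values taken over all genes cannot exclude a pairing that touches few genes. The 12 segments followed one by one (the 5 smallest p of each set and those DESeq2 called) kept the sign of their difference under these alternatives. They were picked by p in these same data, so a kept sign is no independent check. This was not run for the other segments.

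Asking for at least 10 reads lowered the IL-15 alpha segments found from 55.7 to 40 in WT and from 57.3 to 37.3 in KO, and beta segments from 21 to 20 and 20.3. Summing families lowered the alpha effective number in IL-15 from 17.0 to 8.38 in WT and from 19.0 to 8.12 in KO, beside 7.18 and 6.49 without stimulation. Leaving out dv segments raised it to 22.5 and 28.4. The beta effective number became 8.55 in unstimulated KO and 11.4 in IL-15 KO. Median usage distances for families were 58.9 and 33.0% within the unstimulated set and 64.2 and 31.6% between sets, for alpha and beta. V reads of 19754 to 46194 per library and 3 libraries per group limit what could be detected.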
